A study of Mus musculus with 3 samples.

Results

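Mitochondrial ribosomal protein genes were taken as the genes whose symbol starts with Mrpl or Mrps followed by a number and that have a protein-coding transcript. The rule found 78 genes among 55536 annotated genes, of which 22028 were protein-coding. Another 5 annotated genes with such symbols were processed pseudogenes and did not meet the rule. The genes were measured in 3 total RNA-seq libraries of chromatin-bound RNA, which is enriched in nascent transcripts. The cells were macrophages grown from the bone marrow of mice of the strain C57BL/6J. All 3 libraries belonged to 1 group, in which the cells received Lipid A, the Toll-like receptor 4 agonist of bacterial lipopolysaccharide, at 100 ng/ml for 12 h, were washed out for 12 h and then received Lipid A at 100 ng/ml for 40 min. Sex and age were not collected, and all 3 libraries carry the same strain-level donor label, so the spread between them may be partly technical. No library without Lipid A was analysed here, and levels are therefore described without any induction. Replicate 1 was made from 1 µg of RNA, replicate 2 from 250 ng and replicate 3 from 500 ng.

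Mitochondria keep their own ribosome, which translates the few mRNAs of the mitochondrial genome into core subunits of the respiratory chain and ATP synthase. Its rRNAs are made inside the organelle, while all of its proteins are encoded in the nucleus, translated in the cytosol and imported. The large subunit forms peptide bonds and carries the exit tunnel, and the small subunit binds the mRNA. Part of the proteins have bacterial counterparts and others exist only in mitochondria. In macrophages the respiratory chain that these ribosomes supply is known to be reset after Toll-like receptor stimulation.

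Depth was 13802716, 17187524 and 16502809 expected counts in replicates 1, 2 and 3. Of 10 macrophage marker genes all 10 were detected, with Adgre1 at 368 ± 35.6 TPM (SD, n = 3), and no listed marker of neutrophils, T cells, B cells or natural killer cells reached a mean of 10 counts. Among 5 fibroblast markers, 3 collagen genes were detected, and the list summed to 1, 72 and 87 counts in replicates 1, 2 and 3. Among 5 erythroid markers Alas2 was detected.

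Promoter sequences were available for 69 of the 78 members in the RefSeq table on GRCm38.p6, and covered 250 bases before to 50 bases after each annotated start. Mrpl54, Mrpl13, Mrpl4, Mrps34, Mrps35, Mrpl38, Mrps28, Mrpl19 and Mrpl15 were not in the table. Shown 5′ to 3′ along the gene are the promoters of the 7 most abundant members, with or without a motif, and of 3 others that hold 2 of the motifs searched for. Capitals mark, on either strand, the ETS core CCGGAAG read by GABP, the NRF1 core GCGCATGC and the YY1 core AAGATGG, 3 factors known to act on nuclear genes for mitochondrial proteins.
Mrpl24, chr3:87919294-87919593, plus strand: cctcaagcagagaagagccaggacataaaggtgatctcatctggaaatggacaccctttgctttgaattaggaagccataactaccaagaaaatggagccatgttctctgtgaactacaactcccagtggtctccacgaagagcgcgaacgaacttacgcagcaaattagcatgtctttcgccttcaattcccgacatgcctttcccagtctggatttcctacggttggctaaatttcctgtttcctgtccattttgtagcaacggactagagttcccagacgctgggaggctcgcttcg
Mrps9, chr1:42850983-42851282, plus strand: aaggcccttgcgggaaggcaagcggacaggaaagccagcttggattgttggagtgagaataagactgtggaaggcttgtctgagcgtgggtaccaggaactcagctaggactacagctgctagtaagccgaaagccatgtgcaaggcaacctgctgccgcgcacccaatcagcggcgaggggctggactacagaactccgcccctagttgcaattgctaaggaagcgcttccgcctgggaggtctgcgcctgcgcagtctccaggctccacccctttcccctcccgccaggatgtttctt
Mrpl52, chr14:54426659-54426958, plus strand: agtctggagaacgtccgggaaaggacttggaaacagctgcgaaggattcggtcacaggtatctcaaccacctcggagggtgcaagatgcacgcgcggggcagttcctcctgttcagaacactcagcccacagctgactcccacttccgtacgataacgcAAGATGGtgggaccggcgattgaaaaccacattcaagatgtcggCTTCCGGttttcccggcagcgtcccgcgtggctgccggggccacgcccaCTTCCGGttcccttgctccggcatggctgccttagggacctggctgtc
Mrps5, chr2:127587176-127587475, plus strand: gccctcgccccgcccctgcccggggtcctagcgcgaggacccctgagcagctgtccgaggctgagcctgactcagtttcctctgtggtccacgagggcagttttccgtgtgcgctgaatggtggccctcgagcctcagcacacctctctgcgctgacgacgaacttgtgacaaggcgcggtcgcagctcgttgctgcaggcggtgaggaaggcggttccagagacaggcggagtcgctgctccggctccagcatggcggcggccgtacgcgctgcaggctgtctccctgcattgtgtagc
Mrpl3, chr9:105053018-105053317, plus strand: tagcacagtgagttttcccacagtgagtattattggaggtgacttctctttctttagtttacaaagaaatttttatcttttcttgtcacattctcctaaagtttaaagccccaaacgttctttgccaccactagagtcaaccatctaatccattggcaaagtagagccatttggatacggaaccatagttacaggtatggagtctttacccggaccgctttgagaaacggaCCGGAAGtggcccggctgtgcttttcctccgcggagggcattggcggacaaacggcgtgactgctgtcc
Mrpl33, chr5:31613701-31614000, plus strand: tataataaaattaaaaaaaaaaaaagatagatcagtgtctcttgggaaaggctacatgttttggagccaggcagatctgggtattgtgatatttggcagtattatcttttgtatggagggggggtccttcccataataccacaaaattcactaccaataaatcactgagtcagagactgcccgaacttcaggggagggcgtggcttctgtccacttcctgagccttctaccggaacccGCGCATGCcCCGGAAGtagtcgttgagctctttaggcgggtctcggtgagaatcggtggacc
Mrpl39, chr16:84735195-84735494, minus strand: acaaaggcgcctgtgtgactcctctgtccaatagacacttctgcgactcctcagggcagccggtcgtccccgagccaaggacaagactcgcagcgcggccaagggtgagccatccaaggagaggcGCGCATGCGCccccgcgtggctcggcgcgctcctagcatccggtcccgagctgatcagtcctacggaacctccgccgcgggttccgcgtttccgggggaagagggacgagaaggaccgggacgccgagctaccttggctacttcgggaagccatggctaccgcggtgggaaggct
Mrps18a, chr17:46110754-46111053, plus strand: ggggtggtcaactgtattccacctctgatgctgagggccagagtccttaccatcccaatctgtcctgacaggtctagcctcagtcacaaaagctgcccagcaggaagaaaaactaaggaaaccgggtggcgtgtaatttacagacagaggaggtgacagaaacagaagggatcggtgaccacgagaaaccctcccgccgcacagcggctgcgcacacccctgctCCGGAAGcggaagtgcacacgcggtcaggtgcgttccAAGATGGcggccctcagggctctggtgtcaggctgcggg
Mrps18b, chr17:35916391-35916690, minus strand: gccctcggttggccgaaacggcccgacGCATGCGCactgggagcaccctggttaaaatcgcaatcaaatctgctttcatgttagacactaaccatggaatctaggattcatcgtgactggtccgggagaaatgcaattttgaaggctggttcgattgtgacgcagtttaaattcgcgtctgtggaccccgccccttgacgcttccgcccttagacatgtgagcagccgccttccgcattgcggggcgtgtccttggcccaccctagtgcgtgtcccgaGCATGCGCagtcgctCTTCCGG
Mrps12, chr7:28741772-28742071, minus strand: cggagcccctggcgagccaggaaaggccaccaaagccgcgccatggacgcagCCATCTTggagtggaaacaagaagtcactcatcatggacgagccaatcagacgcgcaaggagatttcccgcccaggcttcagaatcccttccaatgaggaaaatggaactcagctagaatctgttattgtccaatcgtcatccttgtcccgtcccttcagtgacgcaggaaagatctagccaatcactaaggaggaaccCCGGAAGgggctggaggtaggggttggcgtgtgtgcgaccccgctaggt

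The ETS core occurred in promoters of 26 of the 69 members (37.7%), against 13.2% of 16453 other protein-coding genes and 21.7% of the 8601 of these that were detected. The share over all 27025 genes of the table was 9.93%. The NRF1 core, which is nearly its own reverse complement so that matches on the 2 strands can overlap as in Mrpl39, occurred in 8 members (11.6%), against 6.32% of the detected others and 3.05% of all genes. The YY1 core occurred in 13 members (18.8%), against 8.72% of the detected others and 7.28% of all genes. At least 1 of the 3 cores was present in 38 members (55.1%), against 32.6% of the detected others. Of 56 cytosolic ribosomal protein genes in the table, 23 held the ETS core (41.1%), 3 the NRF1 core (5.36%) and 9 the YY1 core (16.1%). At least 1 of the 3 cores was present in 33 of them (58.9%), a share above that of the members. Of 31 ETS matches in the members, 19 began in the 100 bases before the start and 9 in the first 50 transcribed bases. Of 15 YY1 matches, 9 began in the first 50 transcribed bases, as in Mrps18a. In the longer form CCGGAAGT the ETS core was held by 12 members (17.4%), against 9.98% of the detected others. A match is a description of letters and not of binding. Members with the ETS core had a median of 3.03 TPM and those without it 2.38 TPM, and of the 12 most abundant members 6 held none of the 3 cores in this window, namely Mrpl24, Mrps9, Mrps5, Mrps10, Mrpl30 and Mrps25.

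The members were widely detected but rarely abundant on chromatin. With a mean of at least 10 counts as the criterion, 69 of 78 members were detected (88.5%), against 49.7% of protein-coding genes. Their median level was 2.55 TPM, with 2.15, 3.70 and 2.52 TPM as the medians in replicates 1, 2 and 3. On a ranking of all protein-coding genes by mean log2(TPM + 1), the median member stood at percentile 63.5, with a range of 48.4 to 92.9. In bulk RNA, fewer expressing cells and less RNA per cell cannot be told apart. Set only against detected protein-coding genes, the median of the detected members was at percentile 30.1, and 11 members exceeded the 7.32 TPM median of those genes. The 76 cytosolic ribosomal protein genes, all detected, had a median of 16.4 TPM and percentile 84.3. All members together took 0.0351%, 0.0460% and 0.0371% of counts in replicates 1, 2 and 3. Their Wilson 95% intervals, which cover counting error only, were 0.0341 to 0.0361%, 0.0450 to 0.0470% and 0.0362 to 0.0380%, and no 2 of them overlapped. The mean share was 0.0394 ± 0.0058% (SD, n = 3).

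**Figure D1:**
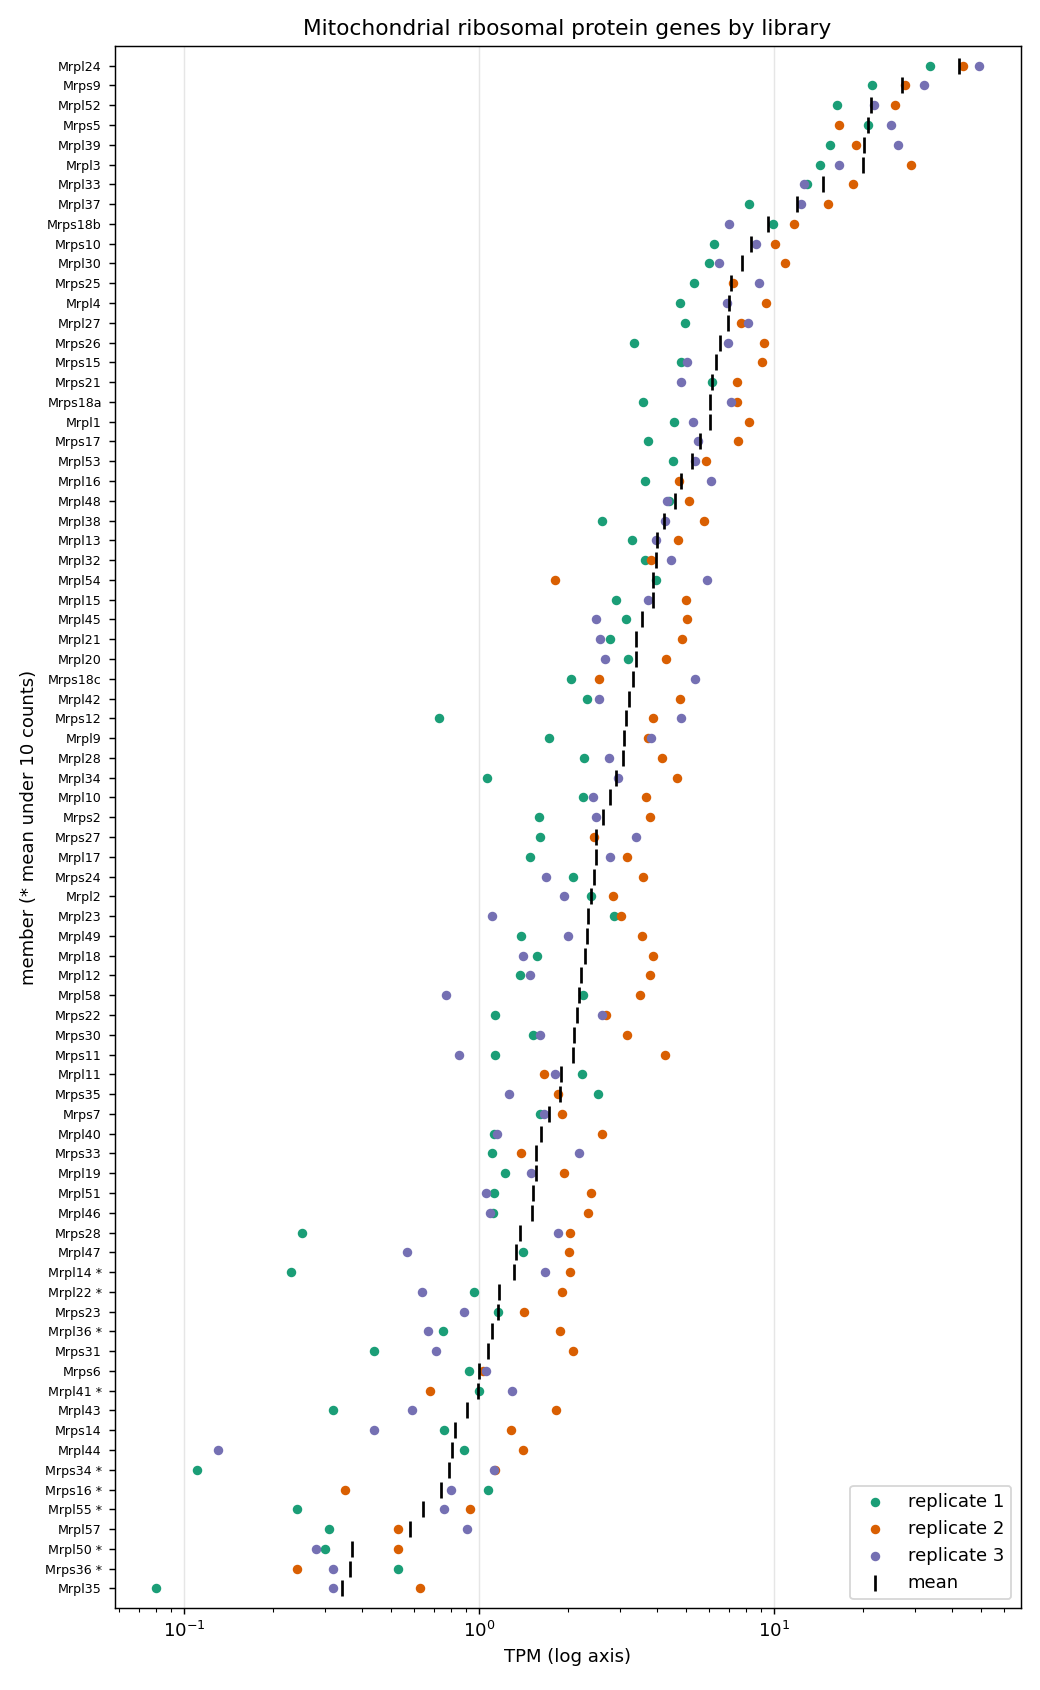
TPM of the 78 members in each library on a log axis, ordered by mean, with black ticks for the mean over 3 libraries and asterisks on members under 10 mean counts. Levels run from 0.34 TPM for Mrpl35 to 42.2 TPM for Mrpl24, and replicate 2 is often the rightmost point.

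A few genes carried much of the summed level. Only 8 members reached 10 TPM, and they held 45.9% of the members' summed TPM, while 30 members lay between 2 and 5 TPM, 16 between 1 and 2 TPM and 11 under 1 TPM. The order of the genes was similar in the 3 libraries, with Spearman's rho of 0.868, 0.859 and 0.862 for replicates 1 and 2, 1 and 3, and 2 and 3, across 78 genes that share their libraries. Mrpl24 (ENSMUSG00000019710.13, chromosome 3, 87919506 to 87923672, mm10 with GENCODE M21), a protein next to the exit tunnel, had 33.6, 43.5 and 49.5 TPM in replicates 1, 2 and 3. Mrps9 (ENSMUSG00000060679.14, chromosome 1, 42851233 to 42905683), a small-subunit head protein with a bacterial counterpart, had 21.4, 27.8 and 32.2 TPM. These were the highest members in every library except replicate 2, where Mrpl3 exceeded Mrps9. Exons of Mrpl24 share 26.3% of their bases with Rrnad1 on the opposite strand, and since the strand setting of the counting is not given in the sources used here, reads there may belong to either gene.

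Next came 4 genes whose levels did not differ beyond their spread. Mrpl52 (chromosome 14, 54426909 to 54429756), specific to mitochondria, had 16.2, 25.6 and 21.7 TPM, and Mrps5 (chromosome 2, 127587222 to 127606829), a small-subunit protein near the mRNA entry, had 20.8, 16.5 and 24.9 TPM. Mrpl39 (chromosome 16, 84717576 to 84735742), a mitochondria-specific large-subunit protein, had 15.4, 18.8 and 26.3 TPM. Mrpl3 (chromosome 9, 105053239 to 105079888), a large-subunit core protein with a bacterial counterpart, had 14.3, 29.1 and 16.5 TPM. By TPM, replicate 2 was the highest library for Mrpl52 and Mrpl3, and replicate 3 for Mrps5 and Mrpl39. Mrpl33 (chromosome 5, 31596935 to 31664384) followed with 12.9, 18.4 and 12.6 TPM, and Mrpl37 (chromosome 4, 107055874 to 107066868) with 8.20, 15.2 and 12.3 TPM. The others of the 12 highest averaged 9.52 ± 2.33 TPM for Mrps18b, 8.31 ± 1.93 for Mrps10, 7.78 ± 2.66 for Mrpl30 and 7.14 ± 1.75 for Mrps25 (SD, n = 3 each). Exons of Mrps25 share 69.8% of their bases with Nr2c2 on the opposite strand, which had 26.3 TPM.

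At the lower end, 9 members stayed under a mean of 10 counts, namely Mrpl14, Mrpl22, Mrpl36, Mrpl41, Mrps34, Mrps16, Mrpl55, Mrpl50 and Mrps36. Their means lay between 0.36 and 1.31 TPM. The lowest of all by TPM were Mrpl35 with 0.08, 0.63 and 0.32 TPM, and Mrps36 with 0.53, 0.24 and 0.32 TPM. Mrps36 is known as a component of the 2-oxoglutarate dehydrogenase complex rather than of the ribosome. It had 1.97, 1.00 and 1.00 counts, and its processed pseudogene Mrps36-ps2 was listed at 0.02, 3.79 and 4.65 TPM, so reads may be split between these near-identical copies.

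By subunit, 51 members placed in the large subunit had a median of 2.90 TPM and 26 in the small subunit 2.46 TPM. This is a log2 ratio of 0.24. The medians of the large and small subunit were 2.27 and 1.605 TPM in replicate 1 and 3.79 and 3.13 TPM in replicate 2. In replicate 3 they were nearly equal, at 2.55 and 2.54 TPM. Mrps30 and Mrps18a are counted here in the large subunit, where structures of the mammalian ribosome place them. Members with a bacterial counterpart (46 genes) had a median of 2.98 TPM and mitochondria-specific ones (31 genes) 2.17 TPM, a log2 ratio of 0.47 that was 0.10 in CPM, without scaling to length, and 0.18 in the tables made from the reads. Within either class the range covered nearly the whole span, from 0.34 to 42.2 TPM for genes with a bacterial counterpart and from 0.37 to 21.2 TPM for mitochondria-specific genes.

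Among named functional sites, the stalk, which binds translation factors, was represented by 5 genes with means from 1.90 to 5.27 TPM. Mrpl10, the stalk base, had 2.24, 3.67 and 2.42 TPM, Mrpl11 had 2.22, 1.66 and 1.81 TPM, and Mrpl12, the flexible arm, had 1.37, 3.79 and 1.48 TPM. Mrpl10 and Mrpl12 were highest in replicate 2 and Mrpl11 lowest there, and of these 3 only Mrpl12 varied beyond counting noise in the chi-square test (adjusted p = 0.015). The 7 genes placed at the exit tunnel ran from 1.17 TPM to the 42.2 TPM of Mrpl24, with a median of 2.48 TPM. The 7 genes placed at the central protuberance, which faces the small subunit, ran from 1.51 to 6.95 TPM with a median of 2.28 TPM. Mrpl58, a peptidyl-tRNA hydrolase built into this region, had 2.24, 3.51 and 0.77 TPM.

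The 3 Mrps18 paralogs, which occupy different places in the ribosome, were unequal in level. Mrps18b (chromosome 17, 35910379 to 35916389) had 9.86, 11.7 and 7.03 TPM and Mrps18a (chromosome 17, 46110986 to 46128910) had 3.59, 7.45 and 7.15 TPM. Mrps18c (chromosome 5, 100798627 to 100804471), the closest counterpart of the bacterial protein, had 2.05, 2.55 and 5.38 TPM. Ranges of neighbouring paralogs in this order overlapped, and only Mrps18b and Mrps18c did not. Among other small-subunit genes, the decoding-site gene Mrps12 had 0.73, 3.87 and 4.84 TPM, Mrps2 had 1.59, 3.80 and 2.48 TPM, and Mrps7 had 1.60, 1.90 and 1.66 TPM. Mrps28 had 0.25, 2.02 and 1.84 TPM on a mean of 10 counts. Mrps30 had 1.52, 3.16 and 1.60 TPM, and Mrpl44, a large-subunit protein with an RNase III fold, had 0.89, 1.41 and 0.13 TPM.

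Whether a gene's counts differed between the 3 libraries by more than Poisson sampling was tested with a chi-square statistic per gene, on rounded expected counts and TMM library sizes, with Benjamini-Hochberg adjustment over 14330 genes. Variation exceeded counting noise for 31 of 69 members (44.9%), against 54.9% of all tested genes by the same rule. The test compares these libraries, not conditions, and genes with more counts are called more easily. With at least 50 counts it called 22 of 33 members (66.7%), against 68.3% of all genes at that minimum. The median SD of log2 CPM was 0.36 for the members and 0.26 for all tested genes, and the median biological coefficient of variation from edgeR was 0.262 for the members and 0.221 for all tested genes. With at least 50 counts the median SDs were closer, at 0.25 for the members and 0.22 for all genes, and the coefficients were 0.220 and 0.195. In the tables made from the reads the members did not exceed all genes in either measure, with a median SD of 0.25 for the members and 0.26 for all genes and a coefficient of 0.217 for the members and 0.218 for all genes.

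Most members were highest in the same library. Of the 69 tested members, 49 had their highest CPM in replicate 2 (71%), 14 in replicate 3 and 6 in replicate 1, whereas replicate 2 was highest for 39.5% of all tested genes and 40.9% of protein-coding ones. Among the 31 members called, replicate 2 was the highest for 25, replicate 3 for 6 and replicate 1 for 0. The median member deviated from its own mean by 0.24 in replicate 2, by -0.12 in replicate 1 and by -0.11 in replicate 3 on the log2 CPM scale, while the median of all tested genes moved by 0.01 in replicate 2. Without replicate 2, only 5 of 63 members were called (7.94%), against 27.9% of 14021 genes, whereas 28 of 71 members (39.4%, against 43.5% of all genes) were called without replicate 1 and 25 of 69 (36.2%, against 41.6%) without replicate 3. Among members whose exons overlap no other gene, 27 of 39 were highest in replicate 2 (69.2%). Replicate 2 also had the smallest RNA input and the largest depth, and the part of these in the result was not tested.

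The smallest adjusted p of the chi-square test fell on both abundant and rare members. These values do not rank the size of the deviation. Mrpl24, listed below, had an SD of log2 CPM of 0.22, under the members' median of 0.36. Mrpl39 had 30.0, 20.7 and 40.3 CPM in replicates 1, 2 and 3, lowest in replicate 2 (adjusted p = 3.3e-23). Mrpl3 had 22.9, 34.4 and 20.5 CPM, highest in replicate 2 (adjusted p = 3.6e-15). Mrps25 had 14.4, 20.0 and 25.3 CPM (adjusted p = 3.1e-09). Mrpl39 and Mrps25 thus peaked in replicate 3 and Mrpl3 in replicate 2. TPM also follow the assigned isoform lengths, and by TPM replicate 2 was the middle library for Mrpl39. Mrps35 had 1.97, 4.60 and 1.55 CPM, Mrps31 had 0.80, 3.25 and 1.10 CPM, and Mrpl24 had 30.8, 26.5 and 35.9 CPM, with adjusted p of 3.8e-07, 4.4e-07 and 2.0e-05. By CPM, Mrps35 and Mrps31 were highest in replicate 2 and Mrpl24 was lowest there. By TPM, replicate 1 was the highest library for Mrps35 and the lowest for Mrpl24. With at least 50 counts, the largest SDs of log2 CPM belonged to Mrps18a (0.48), Mrpl39 (0.48), Mrpl19 (0.47), Mrps2 (0.46), Mrps26 (0.44) and Mrps30 (0.42), and all of these except Mrpl39 were highest in replicate 2. Mrps5 was among the steadiest abundant members, with 8.84, 8.28 and 8.14 CPM (adjusted p = 0.83), although by TPM replicate 3 was its highest library.

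Other genes of mitochondrial translation were set beside the members with the same measures. Of 5 ribosome subunit genes with other symbols, 3 were highest in replicate 2 and 2 were called; Dap3, a GTP-binding small-subunit protein, had 43.1, 41.0 and 50.6 TPM, below Mrpl24 in replicate 2 and above it in replicates 1 and 3. Assembly factors and rRNA modifiers were highest in replicate 2 for 14 of 21 tested genes and called for 12. Malsu1 had 35.2, 55.2 and 64.3 TPM, the highest of these in the gene tables, while in the tables made from the reads Mterf3 exceeded it with 105 against 77.0 TPM. Translation factors were highest in replicate 2 for 12 of 15 and called for 5, led by the recycling factor Gfm2 with 26.4, 33.4 and 30.6 TPM. Mitochondrial aminoacyl-tRNA synthetases were highest in replicate 2 for 9 of 16 and called for 7. Of the genes for mitochondrial transcription 4 of 6 were highest in replicate 2, and of the nuclear regulators 3 of 8. Among the cytosolic ribosomal protein genes 20 of 76 were highest in replicate 2 (26.3%) and 21 were called. Over all tested genes 39.5% were highest in replicate 2 and 54.9% were called. Differences between these lists were not tested.

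RNA of the mitochondrial genome itself was not highest in replicate 2. The ribosomal RNA gene mt-Rnr1 had 33.0, 10.7 and 28.5 TPM and mt-Rnr2 had 12.5, 3.39 and 9.86 TPM, both lowest in replicate 2. Of 13 mitochondrial mRNAs 8 were detected, all 8 were called and 0 were highest in replicate 2 by CPM, with a median deviation of -0.42 there. The other 5 depend on the quantification, since mt-Co2, mt-Atp6, mt-Nd3 and mt-Nd4l were listed at 0 and mt-Co3 at 0.45 TPM in the gene tables but at 40.1, 40.0, 12.1, 28.8 and 32.8 TPM in the tables made from the reads. Mitochondrial transcripts are made outside the chromatin fraction, and how much of them the fraction retained was not tested. Among nuclear regulators, Esrra had 46.2 ± 4.47 TPM, Nrf1 17.6 ± 2.35, Gabpa 12.3 ± 1.82 and Yy1 9.10 ± 2.28 (SD, n = 3 each). The coactivator Ppargc1a had 0.33 counts and 0.01 TPM on average in the gene tables, and 1.96 TPM in the tables made from the reads.

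**Figure D2:**
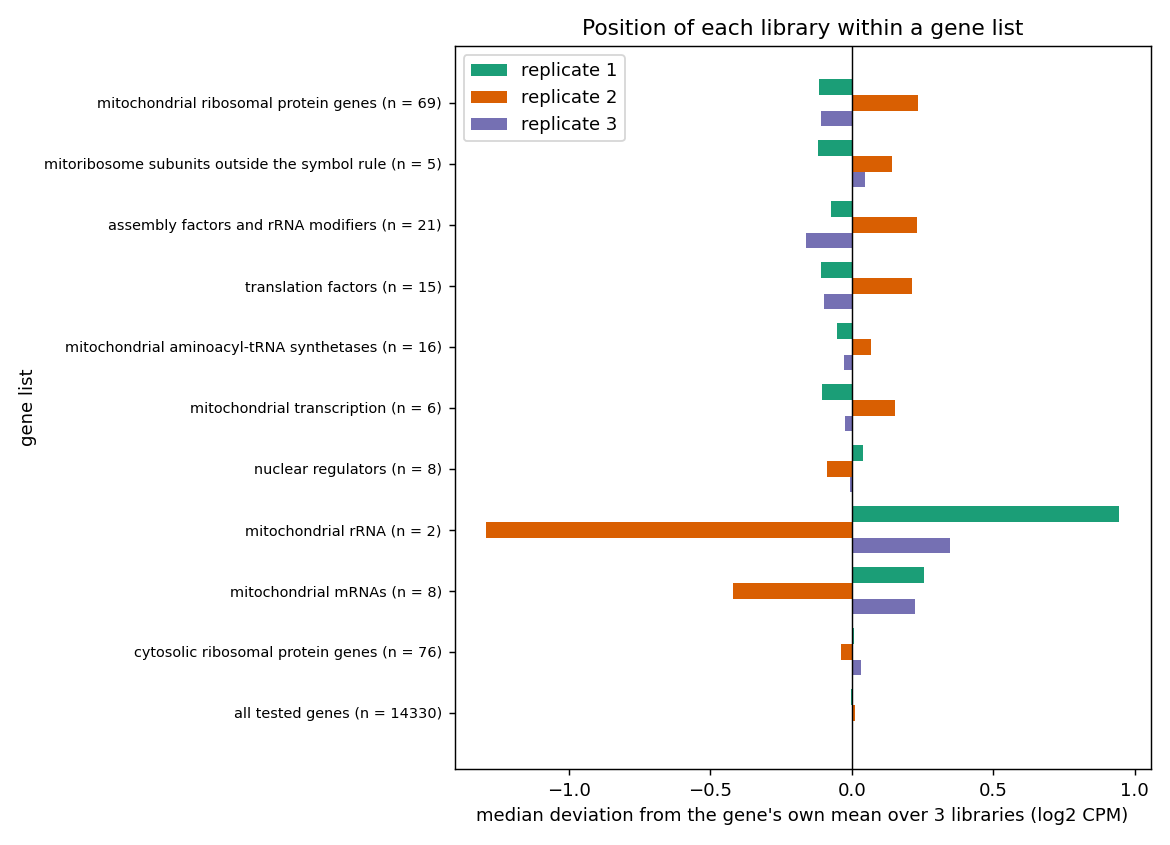
Median deviation of each library from a gene's own mean, in log2 CPM, for the mitochondrial ribosomal protein genes, the lists set beside them and all tested genes, with the number of tested genes in brackets. Replicate 2 lies at 0.24 for the members, at -0.42 for mitochondrial mRNAs and at 0.01 for all genes.

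Annotated transcript classes showed how much of each gene's signal lay outside protein-coding isoforms. For 67 members with at least 1 TPM, a median of 52.4% of TPM was assigned to protein-coding transcripts, against 58.5% for 9818 protein-coding genes. Among 44 of these members with an annotated retained-intron transcript, its median share was 39.7%, against 42.4% for 6288 protein-coding genes. A share over 50% was found for 18 of 44 members (40.9%), against 37.4% of protein-coding genes. The members were therefore near the other genes in this respect. For 20 of the 69 detected members the leading transcript was of the retained-intron class, for 43 protein-coding and for 6 a processed transcript. In chromatin RNA unspliced reads can be assigned to such isoforms, and short annotated fragments cannot be told apart from precursor RNA.

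The most abundant members were divided, and 6 of the 12 highest had over 50% of their TPM in retained-intron transcripts. Mrpl24 had 12.2, 19.6 and 18.7 TPM in a retained-intron transcript and 11.0, 15.6 and 22.2 TPM in its leading protein-coding transcript. Mrps9 had 61.9% of its level in retained-intron transcripts and 7.91% in protein-coding ones, whereas Mrpl39 had 19.8% in retained-intron and 80.2% in protein-coding transcripts. The 5 highest retained-intron shares were 96.3% for Mrps26, 83.1% for Mrpl23, 81.0% for Mrpl58, 79.4% for Mrps24 and 79.3% for Mrps11. Mrps26 was close to this value in each library, with 94.0, 96.1 and 97.7%, and Mrpl23 was not, with 58.6, 100 and 100%. In the tables derived from the reads the shares were 67.0% for Mrps26, 66.8% for Mrpl23, 65.5% for Mrpl58, 9.76% for Mrps24 and 74.3% for Mrps11. For Mrps24 the class of its main transcript thus depended on the quantification.

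**Figure D3:**
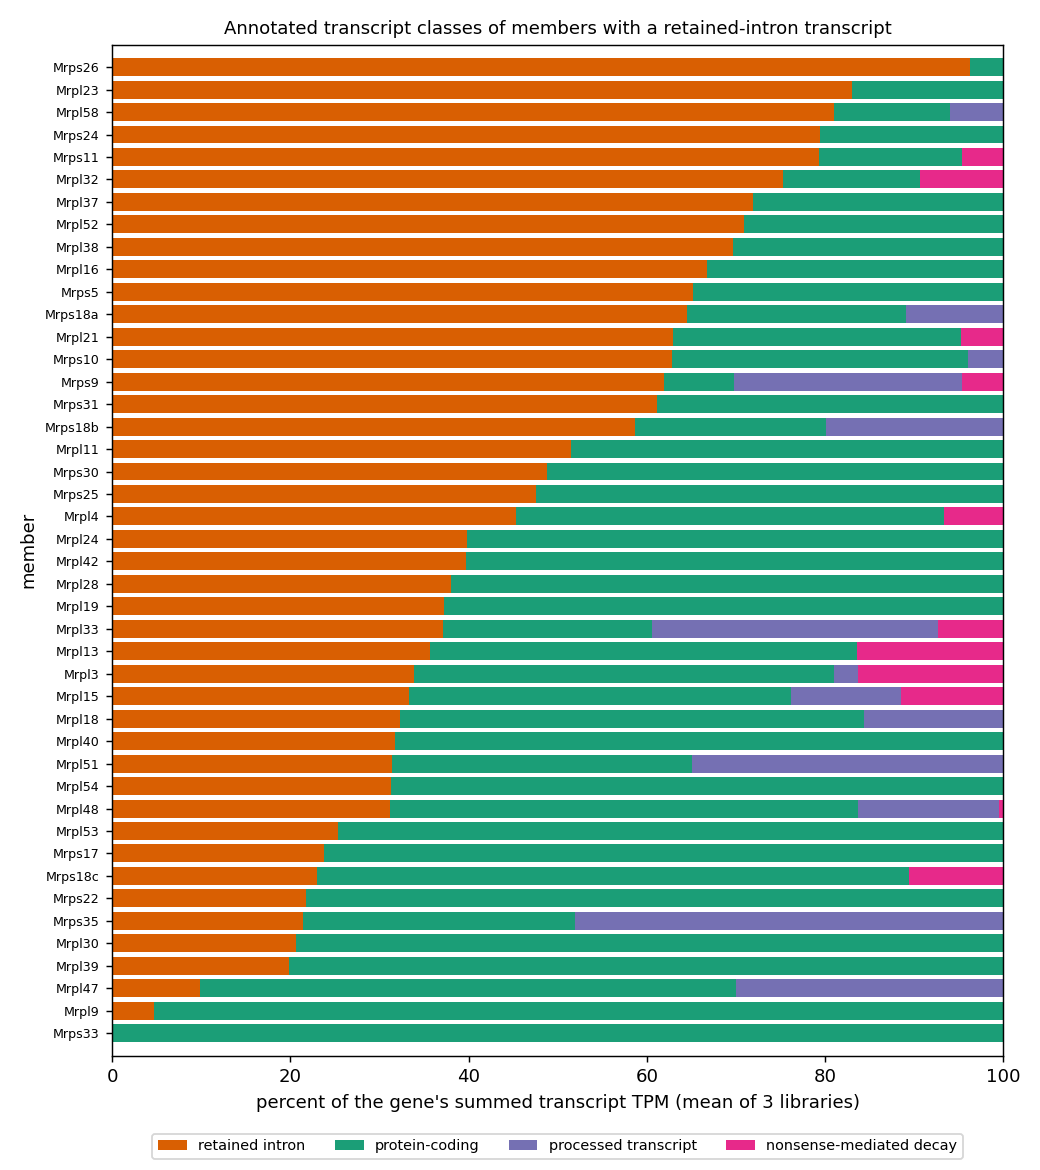
Share of each member's TPM in annotated transcript classes, as the mean of 3 libraries in percent, for the 44 members with at least 1 TPM and a retained-intron transcript. Retained-intron shares run from 96.3% for Mrps26 at the top down to 0 for the lowest, and 18 members exceed 50%.

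The deposited tables made directly from the reads gave other levels for many members, and far higher levels for a small set. Across 78 genes Spearman's rho between both quantifications was 0.756, and the median member was at 4.87 TPM in the tables from the reads. More than 4-fold apart were 7 members, all 7 higher in the tables from the reads. Mrpl48, in the central protuberance, had 72.9, 70.8 and 50.7 TPM in the tables from the reads and 4.39, 5.12 and 4.32 TPM in the gene tables. Mrpl20, needed for assembly of the bacterial large subunit, had 51.5, 33.3 and 74.9 TPM in the tables from the reads and 3.20, 4.30 and 2.67 TPM in the gene tables. For Mrpl48, 57.0 of 64.8 TPM lay in the processed transcript ENSMUST00000127253.1, of which 56.3% of 25-base words also occur in transcripts of other genes. For Mrpl20, 46.3 of 53.2 TPM lay in the short transcript ENSMUST00000130188.1, with 26.3% of words shared. The share of such words was 42.1% for ENSMUST00000109333.7 of Mrps36, 18.7% for ENSMUST00000032485.6 of Mrpl51 and 8.66% for ENSMUST00000065103.3 of Mrpl35. It was 8.05% for ENSMUST00000156464.1 of Mrpl2 and 3.01% for ENSMUST00000022538.4 of Mrpl57. Over all transcripts of a gene together, the median member had 7.73%. The part of shared words in these gaps was not tested. Mrpl35 had 7.63 ± 0.66 and Mrps36 7.39 ± 1.19 TPM in the tables from the reads, against 0.34 ± 0.28 and 0.36 ± 0.15 TPM in the gene tables. Mrpl57 and Mrpl51 were 7.33-fold and 7.27-fold higher in the tables from the reads, and so was Mrpl2 by 6.22-fold, a gene named after its values were seen. The level of these 7 members is uncertain. Smaller differences were common, as 25 of 45 named members had a mean TPM from the reads outside 1 SD of the main value. Mrpl24 and Mrps9 were alike in both, with 42.0 and 27.6 TPM in the tables from the reads.

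**Figure D4:**
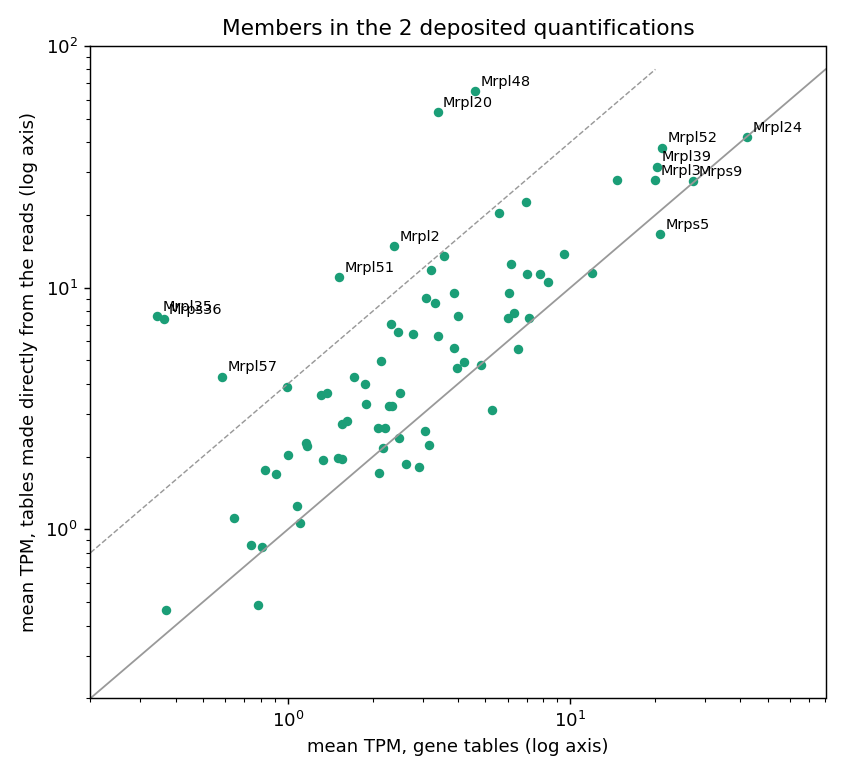
Mean TPM of the 78 members in the gene tables (horizontal) and in the tables made from the reads (vertical), both on log axes, with a solid line of equality and a dashed line at 4-fold. The 7 named points above the dashed line include Mrpl48 at 64.8 and Mrpl20 at 53.2 TPM, while Mrpl24 lies on the line of equality.

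Many members sit next to another gene. A protein-coding gene on the other strand started within 1000 bases of the start of 33 of 78 members (42.3%), against 10.8% of all protein-coding genes. That background includes many undetected genes, whereas most members were detected, and the share among detected genes was not computed. For 22 of the 33 the starts were within 300 bases. The partner had a higher mean level than the member for 21 of the 33 members, where Mrps11 and Mrpl46 each entered as the partner of the other. Exons of 33 members shared bases with another gene, 28 of them with a gene on the opposite strand. The share of genes with such overlap among all protein-coding genes was not computed.

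The pairs combined quite unequal levels. Mrps12 (chromosome 7) starts 172 bases from Sars2, the mitochondrial seryl-tRNA synthetase gene, whose start also lies within the Mrps12 sequence shown above; Mrps12 had 0.73, 3.87 and 4.84 TPM and Sars2 3.59, 5.02 and 3.56 TPM. Mrps18b starts 45 bases from Ppp1r10, a phosphatase-targeting subunit, which had 73.8, 69.2 and 101 TPM and thus exceeded it in each library. Mrps7 with 1.72 ± 0.16 TPM was paired with Gga3 with 26.5 ± 3.62 TPM, and Mrpl44 with 0.81 ± 0.64 TPM with Wdfy1 with 73.5 ± 4.36 TPM. Conversely Mrps5 averaged 20.7 ± 4.19 TPM beside 1.12 ± 0.20 TPM for Zfp661. Mrps11 and Mrpl46 are a pair of members and overlap in 173 exonic bases; Mrpl46 was chosen after its values were seen. Mrps11 had 1.13, 4.25 and 0.85 TPM and Mrpl46 1.11, 2.33 and 1.09 TPM, both highest in replicate 2.

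**Figure D5:**
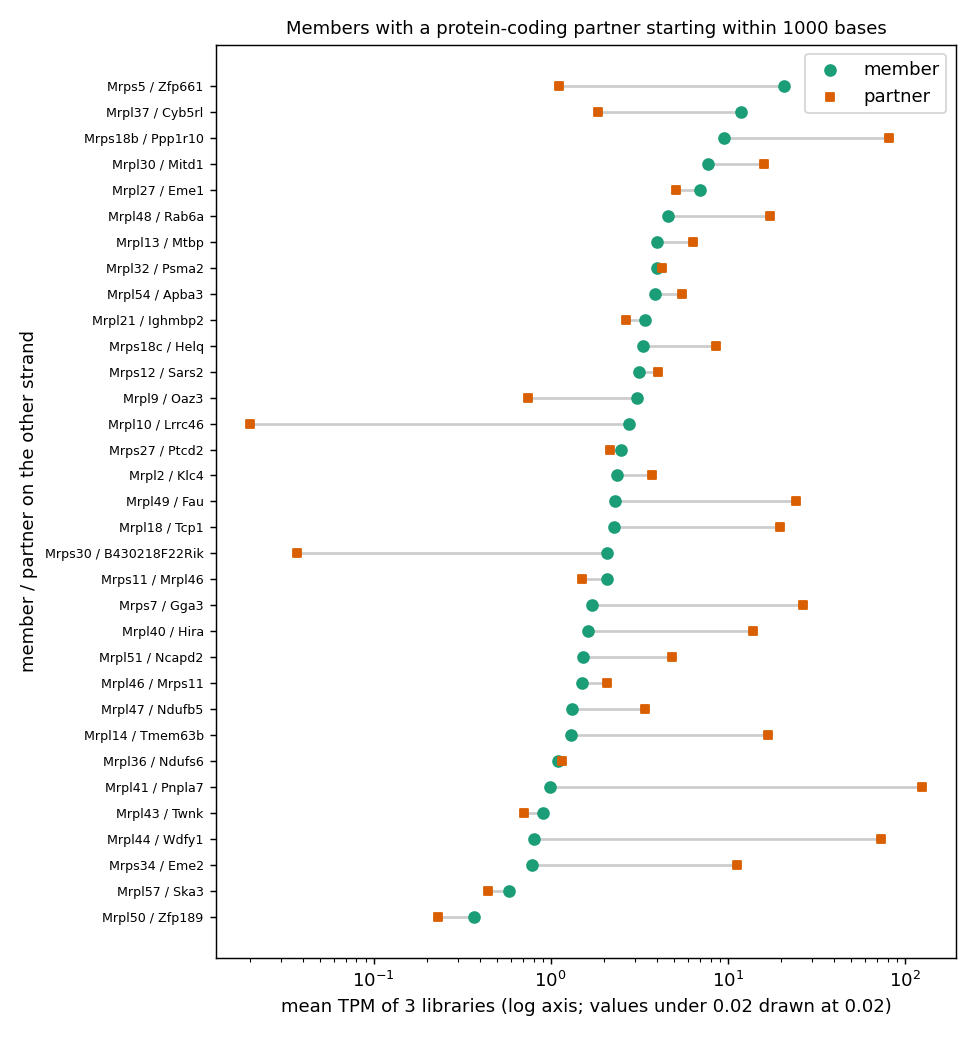
Mean TPM over 3 libraries on a log axis for the 33 members (circles) with a protein-coding partner (squares) on the other strand starting within 1000 bases. Partners are higher for 21 of the 33 members, with Mrps18b and Ppp1r10 at 9.52 and 81.3 TPM and Mrps5 and Zfp661 at 20.7 and 1.12 TPM.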

How the data were processed

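Chromatin RNA was measured in 3 libraries of 1 group. The authors deposited tables of expected counts and TPM per gene and per transcript in the layout of RSEM, and transcript tables with estimated counts and TPM in the layout of kallisto made directly from the reads, on mm10 with GENCODE M21 per the file headers and labels. The sources used here name no program, version or strand setting. Deposited TPM values sum to about the same total in each library. Here, expected counts in annotated genes were rounded, scaled with TMM in edgeR 4.0.16 (R 4.3.3) and tested per gene against Poisson sampling with a chi-square test, after a trial on simulated data. No contrast was fitted, as there is 1 group. Gene neighbours, exonic overlap and shared 25-base words came from GENCODE M21, promoters from RefSeq. Alternatives used DESeq2 size factors, other minimums, the tables from the reads and leaving out each library. Genes named were the 12 highest and 6 lowest members, those under 10 counts, the 6 with the largest SD and the 6 smallest adjusted p. Also named were the 5 highest retained-intron shares, up to 6 over 4-fold apart between quantifications, and a fixed set of 15 members. From the other lists only some genes were named, and not always the leading ones. Members and lists were chosen with earlier results of these data known.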

Additional observations from a re-analysis of the deposited data

How the results depend on the processing

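Alternatives were set against the SD between single libraries. For the median SD and the median biological coefficient of variation, the SD of the values with a library left out was used instead. Of 72 alternatives to the summary values, 45 stayed within this spread, or within 1.5 times for counts, and 27 moved. The cause of these moves was not tested except where fewer genes or samples entered. With at least 50 counts, 33 members were detected and their median SD of log2 CPM was 0.25, against 0.22 for all genes at that minimum. Of these 33 members, 23 were highest in replicate 2 (69.7%), against 40.5% of all genes at that minimum. In the tables made from the reads the median member had 4.87 TPM and percentile 62.5, the median SD was 0.25, the log2 ratio of bacterial-type over mitochondria-specific members 0.18, and the median shares 58.9% protein-coding and 36.5% retained-intron. TPM rescaled to protein-coding genes, which held 30.1% of summed TPM, gave a median of 8.39 TPM. In CPM the median percentile was 58.6 and the same log2 ratio 0.10, and among detected protein-coding genes the percentile was 30.1. At 5 TPM or more the median shares were 47.2% protein-coding and 47.6% retained-intron. The longer ETS core was held by 12 promoters. Of 39 detected members without exonic overlap, 27 were highest in replicate 2 (69.2%). This overlap comparison, the other settings for replicate 2 and the 300-base window were chosen after seeing the data. Leaving out each library in turn gave 5 to 28 members called by the chi-square test (5 without replicate 2), a median SD of 0.20 to 0.33, a median biological coefficient of variation of 0.209 to 0.288, a median percentile of 63.3 to 64.3, a log2 ratio by class of 0.33 to 0.47, and median shares of 52.4 to 57.6% protein-coding and 38.7 to 44.0% retained-intron. The large over small subunit ratio kept its sign under all 6 alternatives, but in replicate 3 alone the medians were nearly equal, at 2.55 and 2.54 TPM. Of 45 named members, 25 had a mean TPM from the reads outside 1 SD of the main value. No paired analysis was possible because there is 1 group. The levels of the 9 members under 10 mean counts rest on few counts in the gene tables. In the tables made from the reads 77 members reached that minimum, and the part of depth in this was not tested.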
